A study of Helianthus annuus with 9 samples.

Results

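Developing sunflower seeds held 191 circular RNAs (circRNA) that were listed at 0 in every library of day 7 and above 0 in at least 2 of the 6 libraries of day 22 and day 37. They were 191 of the 3482 circRNA in the deposited table. Of the 191 late-only circRNA, 34 made up a day 22 class, 46 a day 37 class and 111 a class of both late days. They were chosen by the day 7 and late circRNA values themselves, so their absence on day 7 and their presence later are a description and carry no test. In each late library their median span was longer than that of circRNA shared with day 7, but the day 37 class, taken alone, was about as short as the shared ones. Of the 75 that could be set against assembled exons, 13 had both ends at exon ends. A single circRNA of 29122 bases carried most of their signal on day 37.

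A circRNA forms when the spliceosome joins a downstream splice donor to an upstream splice acceptor, which closes 1 or more exons into a ring. Sequencing sees such a ring only through reads that cross the back-splice junction, so a listed circRNA is a pair of joined positions with a junction level. The ring has no free ends for exonucleases to attack, and many circRNA outlast the linear transcript of their host gene. Seeds of sunflower pass from growth of the embryo and its coats to the filling of the cotyledons with oil and protein, and then dry as they mature.

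The libraries came from field-grown seeds of the high oleic acid line L-1-OL-1 in Harbin, which had no treatment and no other genotype beside them. Day 7, day 22 and day 37 had 3 libraries each, made from total RNA after depletion of ribosomal RNA. The event that starts the day count is not in the labels, nor is it said that the libraries of 1 day are separate plants, so p-values measure only the spread between libraries. Neither the tables nor the gene annotation gave product names, so markers of seed tissue could not be checked and the genes below are named without a function. In bulk seeds, fewer cells of a type and less RNA per cell cannot be told apart.

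The circRNA level is a signal whose unit the header does not name. In each library it was 0 or a whole multiple of a step, to within 0.51 for all values under 600, and the lowest value above 0 was always 2 steps. The step was 14.0, 14.5 and 14.4 in the day 7 libraries, and it lay between 9.46 and 10.5 in the late ones. The lowest value that could be listed was thus 28 or 29 on day 7 and 19 to 21 later. The day 7 libraries listed 1113, 1111 and 1237 circRNA with a summed signal of 376065, 400547 and 396264. The day 22 libraries listed 585, 396 and 319 circRNA, which summed to 77319, 31224 and 20462. Those of day 37 listed 697, 526 and 205, which summed to 98269, 78038 and 19801. Read depth is unknown, and the library numbered 3 had the lowest number and the lowest sum on both late days.

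Most of the late-only circRNA lay close to the limit of listing. Their highest value in any late library had a median of 42, and 37 of them never rose above 2 steps, which is below the lowest value listed on day 7, so a value like theirs could not have been listed there. Another 36 reached 3 steps, 92 reached 4 to 10 steps and 26 went over 10 steps. The 121 just inside the rule, in 2 late libraries, had highest values from 19 to 4244 with a median of 38. Just outside it stood 973 circRNA in 1 late library, from 19 to 5232 with a median of 21. A further 60 circRNA missed it through 1 day 7 library, where their values ran from 28 to 202 with a median of 43.

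Few were seen again and again. Of the 191, 121 were in 2 late libraries, 40 in 3, 19 in 4, 6 in 5 and 5 in all 6. Only 28 were above 0 in all 3 libraries of a day, 6 of them in the day 22 class, 3 in the day 37 class and 19 in the class of both days. Libraries numbered 1 and 2 supplied most pairs within a day. They held 18 of the 28 day 22 circRNA in 2 libraries, and 33 of the 43 such circRNA of day 37. The classes rest on these libraries: without the first or the second day 22 library the day 22 class fell to 10 and 12, and without the first or the second day 37 library the day 37 class fell to 9 and 7. The class of both days held 70 without the first day 22 library.

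The number of late-only circRNA per library was alike in range on both late days. They numbered 98, 72 and 62 in the day 22 libraries and 108, 105 and 53 in those of day 37. The ranges overlapped, and the difference between the means of 77.3 ± 18.6 and 88.7 ± 30.9 (SD, n = 3) did not pass an exact two-sided permutation test (p = 0.7, where 0.1 is the smallest that 3 against 3 libraries allow). Their share of the circRNA listed in a library was 16.8%, 18.2% and 19.4% at day 22, against 15.5%, 20.0% and 25.9% at day 37. The highest share of each late day was in the library numbered 3, the one with the fewest circRNA.

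**Figure D1:**
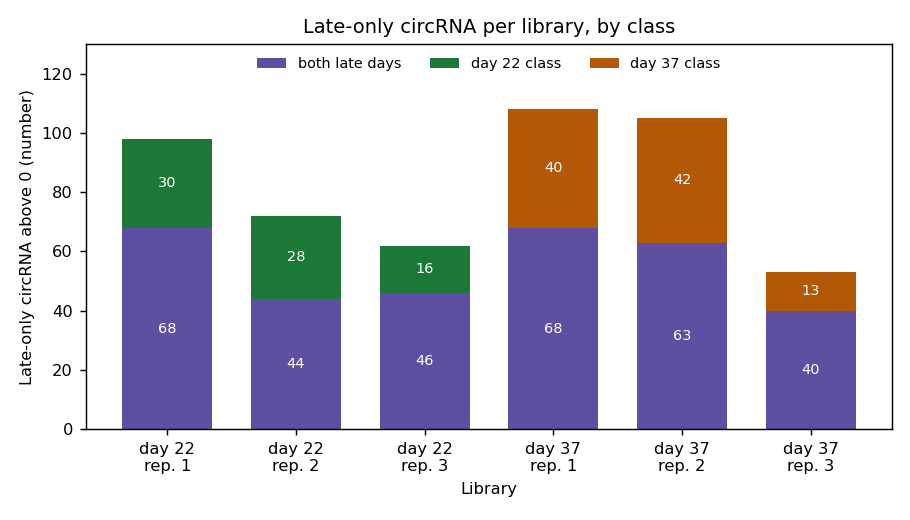
Number of late-only circRNA above 0 (y axis) in each of the 6 late libraries (x axis), stacked by class. The library numbered 3 is the lowest of both days, with 62 on day 22 and 53 on day 37.

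By signal the late days stood apart. Late-only circRNA made up 29.2%, 22.6% and 16.3% of the summed circRNA signal on day 22, and 53.2%, 60.2% and 63.0% on day 37. Every day 37 library was above every day 22 library, and the exact two-sided permutation test gave the smallest p it can reach, 0.1 (0.4 after Benjamini-Hochberg adjustment over 6 such tests). This difference rested on a single circRNA. It supplied 45.5%, 53.3% and 54.5% of all circRNA signal in the day 37 libraries, against 15.0%, 0% and 0% on day 22. Without it the late-only share of signal was 16.7%, 22.6% and 16.3% on day 22 and 14.1%, 14.7% and 18.8% on day 37, where the ranges overlap (exact permutation p = 0.4).

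That circRNA lies on NC_035444.1 from 76408941 to 76438063, spans 29122 bases and belongs to the class of both days. Its signal was 11588, 0 and 0 on day 22 and 44704, 41617 and 10785 on day 37, a mean of 3863 ± 6690 against 32369 ± 18756 (SD, n = 3). It was high in all 3 day 37 libraries, but the first day 22 library lay above the third day 37 library, so the days overlapped. Its log2(signal + 19) was 7.40 ± 2.19 (SE) higher on day 37, with a limma adjusted p of 0.210 over all circRNA tested. The fit takes its spread from all 9 libraries, and the 3 day 7 values of every late-only circRNA are 0 by the rule and so add no spread of their own. Without the first day 22 library the difference was 10.48 and passed the test (limma adjusted p = 0.000853). The day 22 values left are then all 0, as in the day 37 class, so that call cannot be read as a result for this circRNA. The assembly file does not cover its chromosome, so no exon could be set beside it.

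The second in level of the same class ran the other way. It lies on NC_035435.1 from 129518962 to 129556158 and spans 37196 bases. Its signal was 1976, 1575 and 989 at day 22, then 146, 242 and 38 at day 37. All 3 day 22 libraries were above all 3 day 37 libraries, and it fell by 3.45 ± 0.58 (SE) on the log2(signal + 19) scale (limma adjusted p = 0.0170, and 0.0161 with the late libraries alone). The call was lost by a small margin without the first day 7, the first day 22 or the second day 22 library, at limma adjusted p of 0.0504, 0.0531 and 0.0530. Its end falls on an exon end of LOC110932224, a protein-coding gene whose own linear RNA was at 0 FPKM on day 7 and day 37 and at 0.03, 0 and 0.04 FPKM on day 22. The assembled exons of that gene run from 129552903 to 129556864. The circRNA starts before them, and most of its span lies outside their range.

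Others of the class were lower. The circRNA on NC_035449.1 from 27445320 to 27453984 (8664 bases) had 62, 40 and 0 at day 22, then 774, 464 and 38 at day 37. The one on NC_035438.1 from 95204608 to 95204940 (332 bases) had 0, 20 and 0 and then 450, 283 and 38. In the first the third day 37 library fell within the day 22 range, while in the second the days did not overlap. Their differences on the log2(signal + 19) scale, 2.64 and 3.05, did not pass the test (limma adjusted p = 0.375 and 0.0870). Both passed it without the third day 37 library, at 3.78 and 3.96 (limma adjusted p = 0.0156 and 0.00461), with no filter (0.00480 and 0.000228) and with quantile normalization (0.0164 and 0.00219). The second also passed at equal summed signals (0.0265) and with the late libraries alone (0.0496). The circRNA on NC_035446.1 from 117741122 to 117741768 (646 bases) was 1 of the 5 in all 6 late libraries. It had 135, 199 and 77 on day 22 and 31, 121 and 19 on day 37, with overlapping days and no call (limma adjusted p = 0.413).

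The 111 of both days varied as widely in length as in level. The longest of all late-only circRNA, on NC_035439.1 from 3392895 to 3544178, spans 151283 bases. It had 146, 40 and 19 at day 22, then 73, 40 and 0 at day 37. The next, on NC_035436.1 from 71499011 to 71625434 (126423 bases), was seen in the second library of each late day alone, at 40 and 20. The shortest, on NC_035440.1 from 62783165 to 62783267, spans 102 bases and had 30 in 1 library of day 22 and 19 in 1 of day 37. All 3 rest on values of 2 to 4 steps in most libraries that list them.

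The 34 of day 22 held 30, 28 and 16 circRNA above 0 in the libraries of that day, with medians of 42, 30 and 24. The highest among the 6 that were in all 3 libraries lies on NC_035449.1 from 54607614 to 54609465 (1851 bases), with 479, 199 and 86. The circRNA on NC_035443.1 from 40366609 to 40381956 (15347 bases) had 125, 150 and 48. The circRNA on NC_035436.1 from 175887176 to 175888174 (998 bases) had 42, 110 and 48. In each of these the signal was well above 2 steps in all 3 libraries, and all were listed at 0 on day 37, as their class requires. The rest of the 5 leading ones reached 52 at most. The circRNA on NC_035445.1 from 185255733 to 185266125 (10392 bases) had 52, 20 and 38, and that on NC_035448.1 from 153873365 to 153923652 (50287 bases) had 21, 40 and 19.

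The highest signal of the class was not among them, because it was missing from 1 library. It lies on NC_035437.1 from 96117947 to 96179474, spans 61527 bases and had 4244, 2711 and 0. It was picked out after its values were seen. A circRNA with the same end, from 96154855 to 96179474, had 5232 in the first day 22 library and 0 in the other 8, so it missed the rule.

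The 46 of day 37 had the shortest median span of the 3 classes. They numbered 40, 42 and 13 in the libraries of that day, with medians of 31, 30 and 19, so the third library held few of them and mostly at 2 steps. The circRNA on NC_035443.1 from 149031313 to 149033088 (1775 bases) had 356, 202 and 47. The circRNA on NC_035442.1 from 202048772 to 202049189 (417 bases) had 126, 111 and 47. Both were clear of the limit of listing in all 3 libraries. The third and last in all 3, on NC_035448.1 from 122021933 to 122062198 (40265 bases), had 31, 20 and 19, at 2 or 3 steps. The circRNA on NC_035446.1 from 165379157 to 165379307 (150 bases) had 324, 30 and 0, nearly all in 1 library. The circRNA on NC_035435.1 from 83632591 to 83748453 (115862 bases) had 105, 121 and 0. The shortest of the class, on NC_035434.1 from 8834388 to 8834502 (114 bases), had 0, 20 and 19.

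**Figure D2:**
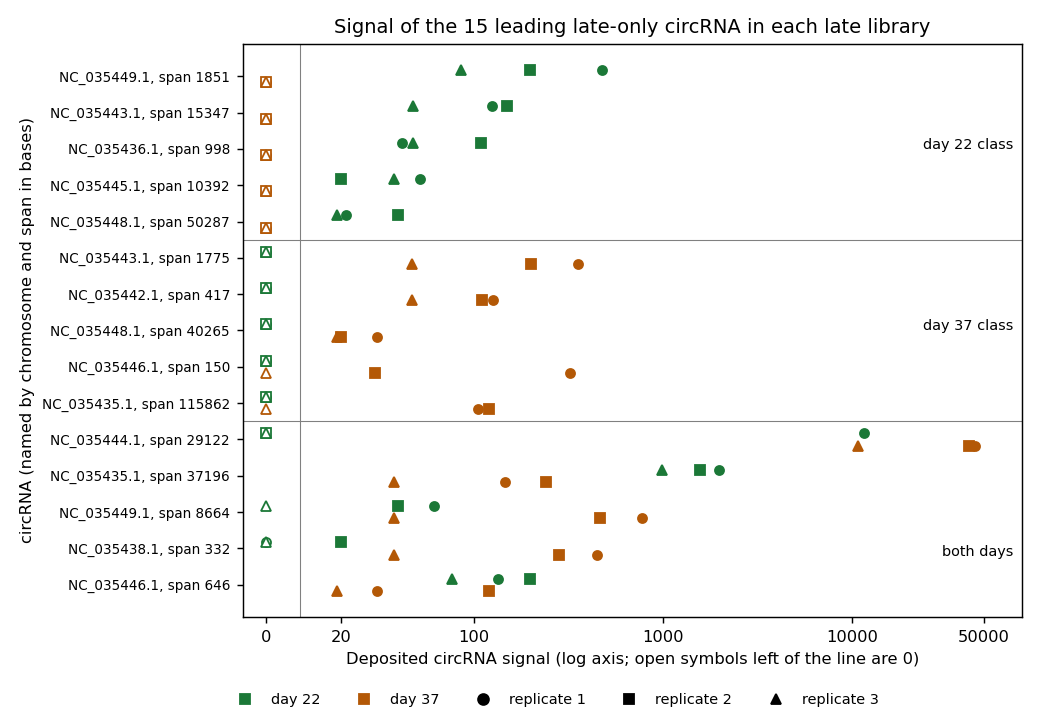
Deposited signal (log x axis, with 0 set apart at the left) of the 5 leading circRNA of each class (y axis, named by sequence and span) in the 6 late libraries, coloured by day and shaped by replicate number. The 29122-base circRNA reached 44704 on day 37, and the 37196-base circRNA was higher in every day 22 library than in any of day 37.

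Across all circRNA above 0 in at least 2 of the 9 libraries, 26 of 1108 were called between day 37 and day 22 (2.35%), 2 higher (0.181%) and 24 lower (2.17%) on day 37. Of the 191 late-only circRNA 7 were called, 2 higher and 5 lower on day 37. The day 22 and day 37 classes were made from these very values, so the 4 and 2 calls in them cannot be read as results. Of the 111 seen on both days 1 was called (0.901%), the 37196-base circRNA above. An unadjusted limma p under 0.05 was found for 8 of the 111 and for 141 of all 1108. The median log2 difference was 0 in this class and over all 1108. The class needs signal on both late days, however. The 1108 include 372 circRNA at 0 in every late library, which cannot differ between these days. The share of 0.901% and the background of 2.35% are thus not like for like, nor are the counts of unadjusted p or the medians. With the late libraries alone 14 of 508 circRNA were called, 5 of them late-only, of which 2 were in the class of both days. With no filter 4 of that class were called, and 30 of 3482 over all circRNA. Leaving out the third day 37 library raised the calls over all circRNA to 84 of 1086 and the late-only calls from 7 to 45, of which 6 were in the class of both days. The late-only calls numbered 26 without the third, 12 without the first and 11 without the second day 22 library, and 12 without the first day 37 library. Over all circRNA the calls were then 50 of 1074, 30 of 1027, 27 of 1061 and 31 of 1011. With each library scaled to the same summed signal the late-only calls were 5 higher and 7 lower on day 37, and with quantile normalization 6 higher and 5 lower. Only 3 and 5 of these were in the class of both days, and the others take their direction from their class. Over all 1108 circRNA these scalings gave 55 and 57 calls, of which 20% and 31.6% were higher on day 37. With no added scaling it was 7.69%, so over all circRNA the balance of directions rested on the scaling.

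The late-only circRNA covered long stretches of the genome. Their span, the distance from start to end of the junction, ran from 102 to 151283 bases with a median of 2305, and 61 of 191 (31.9%) spanned 10000 bases or more. The median was 4528.5 bases for day 22, 997 for day 37 and 3279 for both days. At 10000 bases or more were 14 of 34 (41.2%), 6 of 46 (13.04%) and 41 of 111 (36.9%). Other recurrent circRNA had medians below those of the day 22 class and the class of both days, but not all below that of the day 37 class. The 317 that were above 0 on day 7 and in at least 2 late libraries had a median of 1030 bases with 13.9% at 10000 or more. The 372 in at least 2 day 7 libraries and no late one had a median of 586 bases and 16.9%. The 973 in 1 late library alone, which are also late-only but not recurrent, had 648 bases and 11.2%.

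Within every late library the late-only circRNA were longer than those shared with day 7. Their median span was 2587, 7006 and 10479.5 bases on day 22 and 1077.5, 2099 and 5667 on day 37. The shared circRNA of the same libraries had 1149, 1095 and 1583 bases, and 886, 919 and 861.5. The late-only median was higher in 6 of 6 libraries, by 3737 bases on average (191.5 to 8897), and the exact two-sided sign permutation test over libraries gave its smallest possible p, 0.03125. The libraries hold many of the same circRNA, so they are not independent for this measure, and the comparison was added after the data were seen. The share at 10000 bases or more was higher in 6 of 6 libraries as well, by 21.1 percentage points (exact permutation p = 0.03125).

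Late-only circRNA were also weaker than shared ones, with a median signal of 31, 30 and 29 against 73, 50 and 48 on day 22 and of 42, 30 and 28 against 73, 61 and 38 on day 37. The sets were parted by listing on day 7, which a circRNA near the limit of listing can more easily miss. The lower signal is thus not independent of the rule and is a description with no test. Among circRNA whose highest late signal was at most 100, the difference in median span was 3830 bases, and among those in exactly 2 late libraries it was 2099 bases. It was positive in 6 of 6 libraries both times (exact permutation p = 0.03125). Long late-only circRNA leaned to the libraries numbered 3. Of the 61 at 10000 bases or more, 42 (68.9%) were above 0 in at least 1 of these, against 52 of the 130 shorter ones (40.0%). In the libraries numbered 1 the shares were 72.1% and 87.7%. What the low circRNA content of the libraries numbered 3 adds to these spans was not tested.

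The median span was lower on day 37 than on day 22 in 3 of 3 comparisons of same-numbered libraries. Equal numbers are not known to pair libraries. The means were 2948 ± 2410 and 6691 ± 3956 bases (SD, n = 3), the ranges overlapped, and p was 0.2 in the exact permutation test (two-sided). On the paired differences the exact p was 0.25, the smallest that 3 pairs allow, and neither test could reach 0.05.

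**Figure D3:**
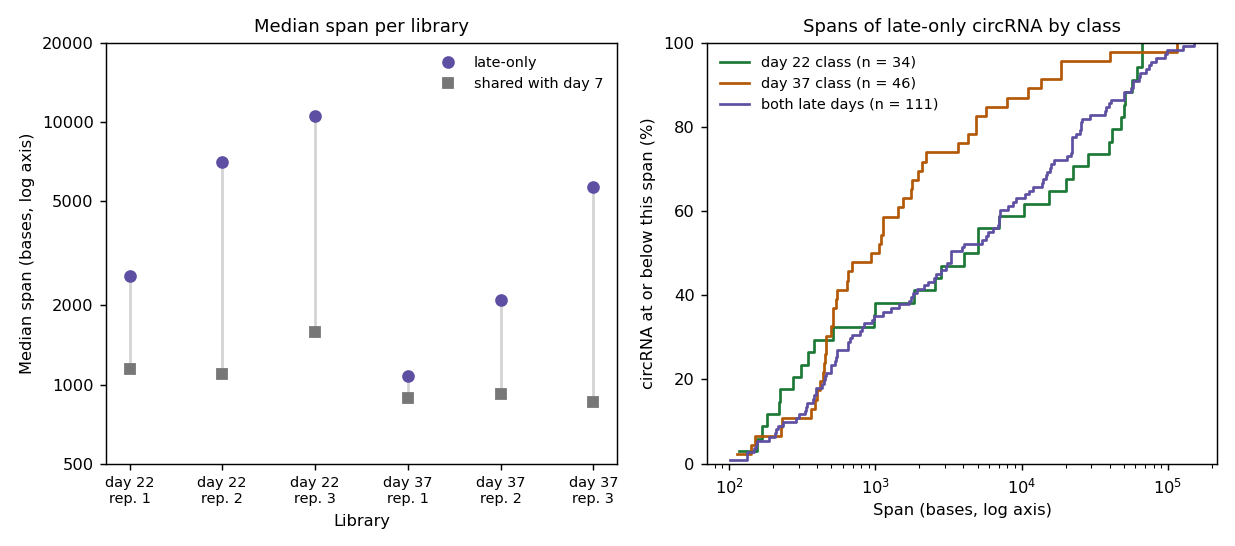
Left, median span in bases (log y axis) of late-only circRNA and of circRNA shared with day 7 in each late library (x axis). Right, cumulative share of each class (y axis, percent) by span (log x axis, bases). The late-only median is the higher in all 6 libraries, and the day 37 curve rises first, with a median of 997 bases.

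To find which late-only circRNA end at assembled exons, their ends were set against the exons of the deposited transcript assembly. That file covered 75 of the 191, on 5 of the 17 sequences that hold any, and the table gave no strand for a circRNA. Both ends fell on exon ends of 1 assembled transcript for 13 of the 75 (17.3%), and 1 end did for 5. A further 22 overlapped an assembled transcript with neither end at an exon, and 35 overlapped none. Annotated exons missing from the assembly were not searched, so the 22 and the 35 may still meet such exons. Among all covered circRNA 12.5% had both ends at exons, and among the recurrent ones shared with day 7 it was 25.9%. The 13 were short, from 363 to 2559 bases with a median of 1062, and none of the 19 covered circRNA of 10000 bases or more was among them. Of the 13 starts, 12 lie 1 base before an exon start and 1 lies on it, so most deposited starts may count from 0.

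Within late libraries the share of covered circRNA with both ends at exons was 14.1% ± 9.86 for late-only and 26.2% ± 2.72 for shared circRNA (SD, n = 6). It was lower in 6 of 6 libraries (exact two-sided permutation p = 0.03125). The libraries hold many of the same circRNA, so they are not independent for this measure either, and the comparison was added after the data were seen. Among circRNA with a highest late signal of at most 100 the gap shrank from -12.1 to -4.92 percentage points (exact permutation p = 0.3125), and among those in exactly 2 late libraries to -5.08 (p = 0.375 in the same exact test). Under this cap on signal, or at this recurrence, the difference thus did not pass the test. The cap does not match signal below 100, and both subsets hold fewer circRNA. Single day 22 libraries had late-only shares of 17.5%, 7.14% and 5.26% (7 of 40, 2 of 28 and 1 of 19). Single day 37 libraries had 27.9%, 22.2% and 4.55% (12 of 43, 10 of 45 and 1 of 22). The shares rest on few circRNA and were lowest in the library numbered 3 of each day.

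The 8 circRNA of highest mean among those with both ends at exons spanned 2 to 6 exons each of an assembled transcript, at low signal. A junction does not show which of the exons between its ends the ring keeps, so exon numbers below are of exons spanned. LOC110930717 had a pair of them that end at the same exon on NC_035435.1 and start 603 bases apart. The shorter, from 157482465 to 157484378, takes in 4 exons and had 42, 0 and 0 at day 22, then 21, 40 and 38 at day 37. The longer, from 157481862 to 157484378, takes in 5 exons and had 0, 20 and 0 and then 52, 61 and 0. Each was seen in more libraries on day 37 than on day 22, at 2 to 6 steps. A pair with a shared end was also seen at LOC110930180, a long non-coding RNA gene on the same sequence. Its circRNA of 3 exons, from 134618508 to 134619570, had 31, 71 and 0 on day 37 alone. The longer partner, from 134616955 to 134619570, has only its end at an exon and had 21, 0 and 0 at day 22, then 31, 0 and 0 at day 37.

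The other hosts had 1 late-only circRNA each. In LOC110910454, on NC_035434.1 from 14190885 to 14193190, the circRNA spanned 5 exons, with 21, 0 and 0 on day 22 and 73, 40 and 0 on day 37. In LOC110937961, on NC_035436.1 from 170285359 to 170285736, the circRNA spanned 2 exons, with 52, 0 and 0 and then 63, 0 and 0, so that only the first library of each late day showed it. In LOC110942429, on NC_035433.1 from 3603792 to 3604885, the circRNA spanned 3 exons and had 42, 50 and 0 on day 37 alone. Day 22 alone was the time of the longest of the group, 6 exons of LOC110935630 on NC_035436.1 from 9649336 to 9651895, with 62, 20 and 0. The circRNA of 2 exons in LOC110864945, on NC_035433.1 from 44424229 to 44424658, had 21, 0 and 19 on day 22 and 21, 20 and 0 on day 37, all at 2 steps. None of these 8 was called between the late days by limma, and the third library of each late day listed 1 of them.

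Some late-only circRNA were near copies of a circRNA already present on day 7. Of the 191, 24 shared a start or an end with another listed circRNA, 10 of them with one seen on day 7, and in 3 the other end lay within 30 bases. The same counts were not made over all circRNA, so no trait particular to the late-only ones is read from them. On NC_035436.1 in LOC110935527, the late-only circRNA from 4264076 to 4267142 had 21, 20 and 0 on day 22 and 63, 0 and 0 on day 37. Its partner starts 19 bases earlier and was abundant throughout, with 84, 130 and 58 on day 7, 614, 319 and 374 at day 22, then 816, 515 and 151 at day 37. The late-only form was thus a small part of the junction signal at this site.

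At the other such sites the balance differed. The leading day 22 circRNA, on NC_035449.1 from 54607614, exceeded its partner from 54607586, which had 62, 80 and 29 on day 22 and 28 in 1 day 7 library. On NC_035448.1 the circRNA from 96299078 to 96301304 had 21, 40 and 0 on day 37. Its partner, which starts 26 bases earlier, had 98, 29 and 43 on day 7, 0 in all day 22 libraries and 94, 40 and 38 on day 37. All 3 pairs share their end and differ in their start. In all, 51 late-only circRNA overlapped another circRNA, 16 another late-only one and 20 one seen on day 7. Overlaps were not counted over all circRNA either.

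Most host genes with an FPKM had linear RNA on day 7. The 18 late-only circRNA with at least 1 end at an exon met exons of 16 genes, counted as hosts. Among them LOC110932224 holds only the end part of its circRNA, most of which lies outside the gene. An FPKM was listed for 15 of the 16, 14 in the mRNA table and LOC110930180 in that of long non-coding RNA. On day 7, when these circRNA were listed at 0, 11 of the 15 had a mean of at least 1 FPKM. The mean was highest on day 7 for 7 genes, on day 22 for 6 and on day 37 for 2. The same counts were not made over all genes, so no trait particular to the hosts is read from them. Within the exon range of 5 of the 16, another circRNA was seen on day 7.

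LOC110942429, whose circRNA was seen on day 37 alone, was the only host called risen from day 7 in the fit of all 9 libraries with no added scaling or block. It had 0.03, 0.02 and 0.05 FPKM on day 7, 52.38, 42.13 and 30.88 on day 22 and 63.41, 40.72 and 13.28 on day 37. Every late library was far above day 7, and it rose by 5.34 ± 0.49 (SE) on the log2(FPKM + 1) scale on day 22 (limma adjusted p = 7.12e-07). LOC110930717, the host of the pair of 4 and 5 exons, went the opposite way. It had 18.32, 18.38 and 18.19 FPKM on day 7, 6.9, 5 and 2.56 on day 22 and 8.7, 6.15 and 1.54 on day 37. All late values were below day 7, and it fell by 1.80 ± 0.47 on day 22 (limma adjusted p = 0.00313), a call that was lost with quantile normalization. LOC110937961 had 13.68, 12.01 and 12.94 FPKM on day 7, 4.59, 4.26 and 0.37 on day 22 and 5.01, 2.33 and 0 on day 37. By day 22 it fell by 2.02 ± 0.60 (limma adjusted p = 0.00805), and this call was lost without any single day 7 library (0.0620 to 0.0718), without the third day 22 library (0.0702) or with either other scaling.

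LOC110864945 fell late. Its FPKM was 26.28, 26.82 and 27.22 on day 7, 64.81, 48.65 and 28.86 at day 22, then 3.66, 1.58 and 0.11 at day 37. The days did not overlap, and from day 22 to day 37 it fell by 4.28 ± 0.50 on the log2(FPKM + 1) scale (limma adjusted p = 2.69e-05), while its circRNA stayed at 2 steps on both days. LOC110909497 had 71.26, 75.32 and 72.27 FPKM on day 7, 247.45, 178.7 and 115.54 on day 22 and 19.02, 14.48 and 4.13 on day 37. From day 22 to day 37 it too fell by 3.89 ± 0.56 (limma adjusted p = 0.000160). Before that, LOC110864945 and LOC110909497 were higher in every day 22 library than in any of day 7. These differences, 0.73 ± 0.50 and 1.23 ± 0.56, were not called (limma adjusted p = 0.194 and 0.0603).

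Over the 11 hosts that passed the filter of 1 FPKM in 3 libraries, 1 rose and 2 fell from day 7 to day 22. Among all 36401 mRNA features tested 59% were called, 34.1% risen and 24.9% fallen, and among the 26364 annotated genes 21.4% and 32.5%. From day 7 to day 37, 1 host rose and 7 fell, against 39.4% and 38.8% of all features (78.2% called) and 24.3% and 50.4% of annotated genes. From day 22 to day 37 none rose and 3 fell, LOC110864945, LOC110909497 and LOC110935634, against 0.843% and 16.6% of all features (17.5% called) and 0.907% and 21.5% of annotated genes. With the replicate number as a block, 6 fell in this last comparison, and 6 without the first day 37 library. LOC110935634 was not called there without the first day 22 library (limma adjusted p = 0.0573), nor LOC110910454 from day 7 to day 37 without the third day 37 library (limma adjusted p = 0.118). The median log2 change of the hosts was -0.17, -1.72 and -1.005, beside 0.09, -0.32 and 0.01 for all features.

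The fall of hosts by day 37 rested partly on scaling. With quantile normalization 3 and with median-of-ratios scaling 4 hosts fell from day 7 to day 37, while the median of all features moved from -0.32 to -0.06 and 0.61. From day 7 to day 22 both scalings gave 3 risen hosts and 1 fallen, and from day 22 to day 37 they gave none risen and 3 and 2 fallen. LOC110942429 rose and LOC110864945, LOC110909497 and LOC110935634 fell from day 7 to day 37 under each scaling run. The library numbered 3 was below both others of its day in 12 of 15 hosts on day 22 and in 13 of 15 on day 37. Its summed mRNA FPKM was also the lowest, 228550 on day 22 and 149870 on day 37 against 542177 to 549131 on day 7, and its part in the host values was not tested.

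**Figure D4:**
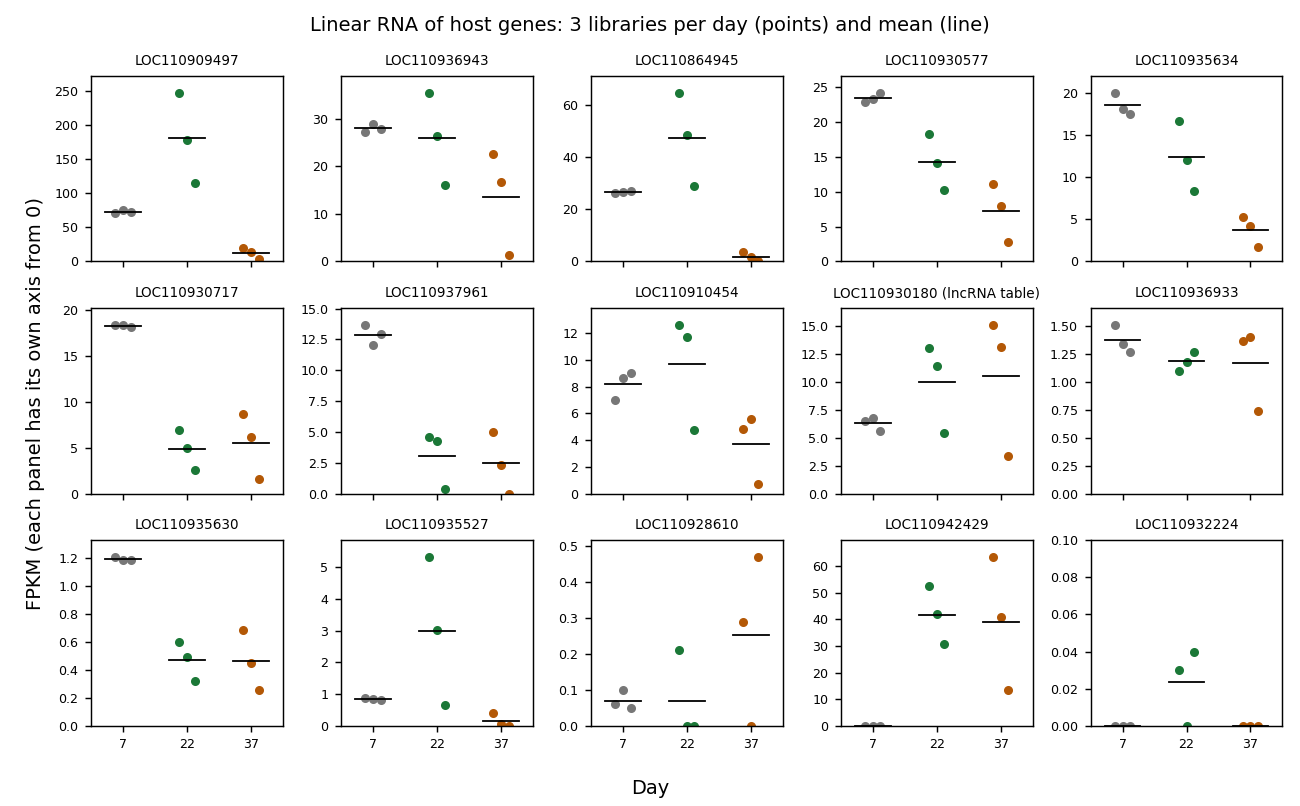
Linear RNA of 15 host genes in FPKM (y axis, each panel with its own scale from 0) on days 7, 22 and 37 (x axis), with 3 libraries per day as points and their mean as a line. LOC110942429 is near 0 on day 7, while LOC110930717 and LOC110937961 are highest on day 7.

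Late-only circRNA were spread over 17 sequences of the genome. They were most numerous on NC_035435.1, with 22 of its 247 circRNA (8.91%), and on NC_035436.1, with 21 of 235 (8.94%). NC_035444.1, which carries the most abundant one, had 6 of 205 (2.93%). NC_035438.1 had 1 of 90 (1.11%), the 332-base circRNA that was higher in all day 37 libraries.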

How the data were processed

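The authors deposited circRNA levels as a signal per junction, and mRNA and long non-coding RNA levels as FPKM, per the file headers. The submitters' processing notes name, with no roles, the authors' use of DESeq2 1.4.5, RSEM 1.2.12, HISAT2 2.0.4 and Bowtie2 2.2.5. The circRNA caller and the genome build are not given in the sources used here. Other deposited values are exon starts and ends of an assembly on 7 sequences, per the file headers, and positions are printed as deposited. No genome was used, so no circRNA sequence is shown. Read depth is unknown.

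Members and lists were chosen with earlier results of these data known. The day 22 class was 0 in all day 37 libraries, the day 37 class the reverse. Log2(signal + 19) was fitted for circRNA above 0 in 2 or more libraries. Log2(FPKM + 1) was fitted for features of at least 1 FPKM in at least 3 libraries. Both fits took all 9 libraries and used limma 3.58.1 (R 4.3.3, trended and robust). They were tested on simulated data with normal noise, unlike the circRNA signal, which is often 0 or a few steps. Calls needed a Benjamini-Hochberg adjusted p under 0.05 over all features and an absolute log2 difference of at least 1, and fold changes of low features are understated by the added constant. Per-library values were compared by exact permutation (scipy 1.17.1). Named circRNA were, in each class, the 5 of highest mean among those in all 3 libraries of a day (filled by those in most libraries), the 2 longest, the 2 shortest, the 8 of highest mean with both ends at exons, and those of the hosts with the most members. Host genes have an exon end at a circRNA end. The labels do not say that equal numbers pair libraries. Deviations of same-numbered day 22 and day 37 libraries correlated across mRNA features at 0.77, 0.15 and 0.78. Between same-numbered libraries of day 7 and the late days the correlations ran from -0.06 to 0.06. The day 22 library numbered 1 correlated at 0.53 with the day 37 library numbered 2, above the 0.15 of the libraries numbered 2. Libraries numbered 1 and 3 ran against each other between the late days, at -0.75 and -0.78. These values do not show that equal numbers pair libraries, which the block and the paired differences assume. Alternatives were other filters, constants and scalings, the late libraries alone for circRNA, each library left out, and the number as a block.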

Additional observations from a re-analysis of the deposited data

How the results depend on the processing

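The number of late-only circRNA follows the rule. It was 1164 with 1 late library required, 70 with 3, 80 with late values above 29 only (12 of day 22, 28 of day 37, 40 of both), 147 without both libraries numbered 3, and 130 to 216 with each library left out. Late-only calls between day 37 and day 22 numbered 3 with 100 added, 5 with the late libraries alone, 11 with quantile normalization, 12 with equal summed signals and 7 to 45 with each library left out. Calls among the 111 of both days ranged from 0 to 6. The call of the 37196-base circRNA was the one lost without the libraries named beside it. Host calls from day 7 to day 37 numbered 4 with quantile normalization and 5 with median-of-ratios scaling against 8, and those from day 22 to day 37 numbered 2 to 6 with each library left out, against 3. The gap in the share with both ends at exons was -4.92 percentage points under the cap on signal and -5.08 in exactly 2 late libraries, as given above. The cause was not tested. The longer median span of late-only against shared circRNA held its direction with each library left out (2705 to 4446 bases).

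With the replicate block, late-only calls numbered 5 against 7, and the call of the day 22 circRNA on NC_035436.1 from 175887176 was lost (limma adjusted p = 0.0565). Host calls with the block were 4, 9 and 6, against 3, 8 and 3. Paired differences per library were 11.3 circRNA (exact permutation p = 0.5) and -3743 bases of median span (exact permutation p = 0.25), where 3 pairs allow no p under 0.25, so they say nothing of stability. In the circRNA table same-numbered day 22 and day 37 libraries correlated at 0.16, 0.04 and 0.21, weaker than in the mRNA table.

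Directions turned in 5 circRNA that were not called under any setting run. With each library left out the longest ranged from -1.10 to 0.037. The shortest ranged from -0.35 to 0.044 and had 0.10 with quantile normalization. The circRNA in LOC110937961 ranged from -0.25 to 0.42, with -0.0011 after quantile normalization and -0.020 at equal sums. That in LOC110864945 ranged from -0.33 to 0.36, with -0.20 and -0.58. The longer one at LOC110930180 ranged from -0.072 to 0.34. A value of 2 steps in 2 libraries makes a member, and 37 members never exceeded it.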
